A study of Mus musculus with 2 samples.

Results

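Cytosolic ribosomal proteins are the protein parts of the ribosome that translates nuclear-encoded mRNA, and their genes were followed here in the lungs of TAZ-deficient mouse embryos and of their wild type littermates. The genes were taken by symbol. A probe set, the group of probes that reports 1 transcript on the array, was kept when the platform annotation assigned it to exactly 1 gene whose symbol is Rpl or Rps with a number and an optional letter, or Rplp0, Rplp1, Rplp2 or Rpsa, and the rule used no measured value, though it was written with earlier results of these data known. The rule found 100 probe sets of 46 genes among 45037 non-control probe sets and 18193 genes, 24 of the large and 22 of the small ribosomal subunit. A further 110 probe sets list a ribosomal protein gene together with other genes, many of them pseudogenes or predicted genes, and were not used, so that 28 symbols of the family have no value below.

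Wwtr1 encodes TAZ, a coactivator of transcription that the Hippo kinases restrain. Each group was 1 Affymetrix one-colour array at E15.5 (the embryonic day) of whole lung, with total RNA of 4 samples pooled for the TAZ-deficient array and of 4 for the wild type array. The allele behind the deficiency, the strain and the sex of the embryos are not stated in the sources used here. A single array per group allows no replicate error, so no difference below has a test and genes are described by the size of the ratio alone. In a whole lung pool, fewer cells of a type and less RNA per cell cannot be told apart.

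A ribosome joins a small subunit, which holds the mRNA and reads its codons, to a large subunit, which forms the peptide bonds and releases the chain through an exit tunnel. Each subunit carries many small, basic proteins, made in matched amounts, and their mRNAs are among the abundant ones of dividing tissue. Most of these mRNAs start with a 5′ terminal oligopyrimidine (TOP) tract, a C followed by an unbroken run of C and T, through which the mTORC1 kinase and its effector LARP1 set their translation. Embryonic lung at this stage grows by branching.

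The promoters of 4 members show what the genes share at the start site and where they vary. They are the 4 genes with the largest ratios in either direction that have an entry in the RefSeq table (GRCm38.p6). Each runs from 40 bases before to 20 bases after the annotated start, and capitals mark every run of at least 8 C or T that begins with C within 20 bases of the start. The windows are chrX:37085203-37085262 on the minus strand for Rpl39, chr7:109519155-109519214 on the plus strand for Rpl27a, chr3:90213629-90213688 on the minus strand for Rps27 and chr2:32961672-32961731 on the plus strand for Rpl12.
Rpl39: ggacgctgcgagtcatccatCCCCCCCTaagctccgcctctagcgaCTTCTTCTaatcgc
Rpl27a: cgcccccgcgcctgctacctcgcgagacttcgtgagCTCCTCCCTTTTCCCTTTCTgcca
Rps27: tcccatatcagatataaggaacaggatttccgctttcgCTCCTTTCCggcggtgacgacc
Rpl12: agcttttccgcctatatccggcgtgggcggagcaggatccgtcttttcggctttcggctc

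In Rpl27a the run was 20 bases long and spanned the start, and in Rps27 a run of 9 bases did so. In Rpl39 there were 2 runs of 8 bases, 1 upstream of the start and 1 beginning at base 7 of the transcript, and in Rpl12 no run was found in this window. Such a run was present in 21 of 48 promoters of 40 member genes (43.8%) and in 14.3% of the 32851 promoters in the table. The letters CCGGAAG, the core bound by ETS factors, were found on either strand in 41.7% of member promoters and in 8.86% of all promoters, within 250 bases before and 50 after the start. AAGATGGC, a YY1-type element, was in 6.25% of member promoters against 2.75% of all, and TATAAA was in 10.4% against 13.6%. A match is a string of letters and does not show binding.

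Wwtr1 followed the labels, its probe set of highest signal reading 11.3 signal units in TAZ-deficient lung, against 791.2 in wild type lung, at least 52.1-fold lower. The tissue markers were present. Sftpc, surfactant protein C, read 4121.5 in TAZ-deficient and 4142.5 in wild type lung, and the lung mesenchyme factor Tbx4 read 993.5 and 970.0. The epithelium list had 8 of 10 ratios above 0 and a median log2 ratio of 0.13, the transcription factor Foxa2 being 1.33-fold higher (641.0 and 483.0). The mesenchyme list had 3 of 7 above 0 and a median of -0.03, the T-box factor Tbx5 being 1.25-fold lower (93.1 and 116.8) and 1.67-fold lower at its other probe set. All 10 lung epithelium and 7 lung mesenchyme markers were measured, meaning above the floor of 15.2 signal units (the median of all values) on either array, as were 12040 genes in all. Red cell genes differed between the pools: of 8 measured, 5 were at least 1.2-fold higher and 1 lower (8.02% and 10.6% of all measured genes were), and their summed signal over 13 matched genes was 5108.8 in TAZ-deficient and 2734.4 in wild type lung, while the erythroid regulators Gata1 and Klf1 lay below the floor on both arrays. The embryonic globin Hbb-y read 2825.8 in TAZ-deficient and 926.0 in wild type lung and held most of that summed difference. Also higher were Hba-x (409.2 in TAZ-deficient and 113.8 in wild type lung) and Hbb-bh1 (61.7 and 19.9). Tfrc (744.3 and 479.1) and Hba-a2 (32.2 and 26.1) were the remaining higher ones. The other 3 of the 8 had ratios below 0: Hbb-b2 (223.9 in TAZ-deficient and 252.2 in wild type lung), Alas2 (609.2 and 662.4) and Slc4a1 (148.2 and 195.2). The red cell list thus did not move as a whole. The part of red cells in the values below was not tested.

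Transcripts of the cytosolic ribosome read nearly the same in both lungs. Of 46 genes, 43 were measured, and the median log2 ratio (TAZ-deficient / wild type) was 0.06 (1.04-fold), against -0.01 over all measured genes. A ratio above 0 was found for 33 of the 43, against 46.7% of all measured genes, with the arrays on their deposited scale. That direction rests on the scale: with quantile normalization 19 were above and 22 below 0 and the median was -0.0009, and with loess 20 were above and 23 below and it was -0.0045. At least 1.2-fold higher were 2 genes, Rpl39 and Rpl27a (8.02% of all measured genes were), and 0 were at least 1.2-fold lower (10.6% of all measured genes). No member was 1.5-fold different by the probe set used for it, against 2.75% of all measured genes in either direction. These shares come mostly from weak signals: of the 1274 measured genes at least 1.2-fold lower, 929 were other genes with a mean signal below 100. Of the 57 other genes above 3000, where 33 members lie, 1 was at least 1.2-fold higher and 0 were lower. The members were thus like other genes of strong signal.

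**Figure D1:**
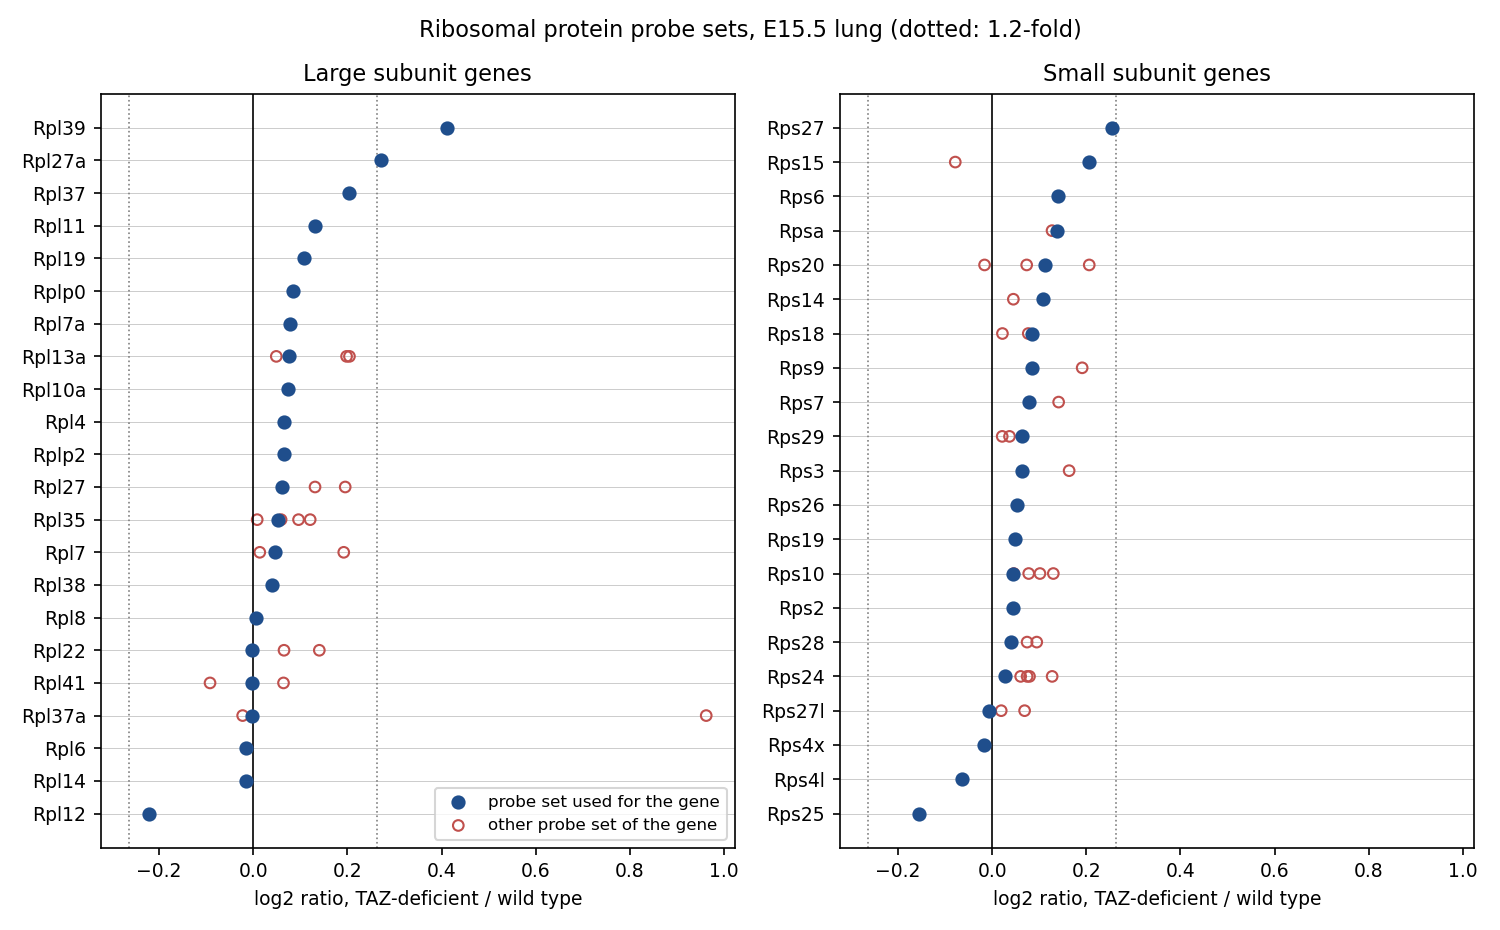
The log2 ratio (TAZ-deficient / wild type) is on the x axis for each measured gene of the large (left) and small (right) subunit, sorted by ratio. Filled points are the probe set used for the gene, open points its other probe sets above the floor on either array, and dotted lines mark 1.2-fold. Nearly all points lie between the dotted lines, a single open point of Rpl37a at 0.96 being the farthest out.

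The 2 subunits gave the same picture. The median log2 ratio was 0.06 for the 22 measured genes of the large subunit and 0.06 for the 21 of the small subunit, with 16 and 17 genes above 0. Ratios in the large subunit ran from -0.22 (Rpl12) to 0.41 (Rpl39), and in the small subunit from -0.16 (Rps25) to 0.25 (Rps27). Under loess the medians were -0.0024 and -0.0056.

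The size of the shift matched the signal range in which the genes lie. For 34 members the mean signal of both arrays was above 1000, and 33 of these were above 3000. Of the 33, 28 had a ratio above 0 and the median was 0.06. The 57 other genes above 3000 had a median of 0.05, with 44 above 0 (77.2%). Among the other genes between 1000 and 3000 the median was 0.04 and 70.7% were above 0, while between 100 and 1000 it was -0.01 and 45.9% were. On the deposited scale most strong signals were thus slightly higher on the TAZ-deficient array, and the ribosomal protein genes lay with them. Loess removes any trend with signal, and its curve was fitted to all probe sets above the floor on both arrays, the members included. Under it the 718 other genes above 1000 had a median of -0.0036. The 43 members, 9 of them below 1000, had -0.0045. Medians near 0 are what such a fit produces, so they do not show where the shift comes from, which was not tested.

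**Figure D2:**
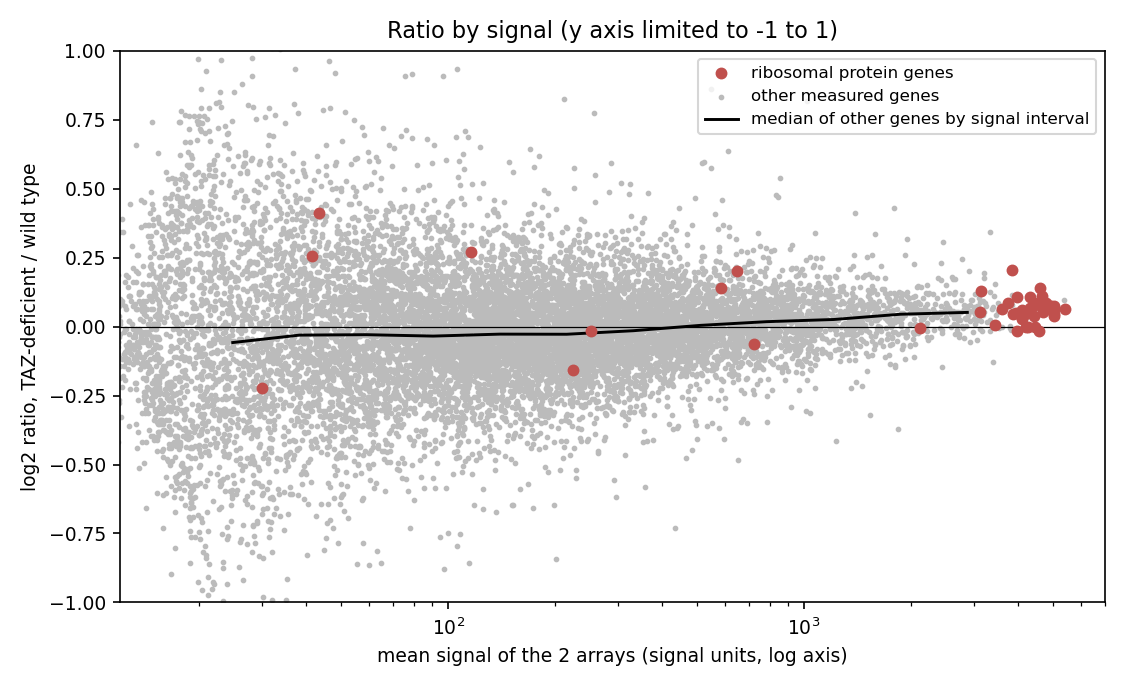
Log2 ratio (TAZ-deficient / wild type) (y axis, limited to -1 to 1) against the mean signal of the 2 arrays (x axis, log scale) for 43 ribosomal protein genes (red) and the other measured genes (grey). The black line, the median of the other genes per signal interval, passes from below 0 at low signal to above 0 at high signal, and most red points lie at its right end.

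Spread among members also went with signal. The 34 genes above 1000 had log2 ratios from -0.02 to 0.21 with an SD across genes of 0.05. The 9 genes below 1000 ran from -0.22 to 0.41 with an SD of 0.22, and held the 3 highest and the 3 lowest ratios of the family. Each of those 9 has just 1 measured probe set. Both genes past 1.2-fold are among them, so that no member above 1000 was 1.2-fold different.

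Among large subunit proteins, those lining the tunnel and its exit were measured for 4 of 8 listed, and all 4 had ratios above 0 on the deposited scale, against 46.7% of all measured genes. Their median was 0.09 as deposited and 0.02 under loess, where Rpl4 (-0.0003) and Rpl35 (-0.02) were below 0. Rpl39, a very small protein in the tunnel wall, read 49.5 in TAZ-deficient and 37.2 in wild type lung, 1.33-fold higher by its single probe set. Rpl4, whose loop reaches into the tunnel, read 4414.0 and 4215.8 (log2 ratio 0.07). Rpl19 at the exit side read 4109.1 in TAZ-deficient and 3813.3 in wild type lung (0.11). Rpl35, near the exit where nascent chain factors dock, read 4780.7 and 4607.2 (0.05), and its 5 measured probe sets ran from 0.01 to 0.12. By the probe set used, the strong signals of Rpl4, Rpl19 and Rpl35 lay within 1.08-fold between the arrays. The signal of Rpl39 was weak and came with the largest ratio of the family.

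The stalk, which recruits elongation factors, was represented by its base Rplp0 and the acidic protein Rplp2. Rplp0 read 4553.3 in TAZ-deficient and 4295.1 in wild type lung (log2 ratio 0.08). Rplp2 read 5154.9 and 4928.5 (0.06). Rpl12, which sits at the stalk base, had the lowest ratio of the family at -0.22, reading 27.6 in TAZ-deficient and 32.2 in wild type lung. Both readings were close to the floor.

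Rpl11, which joins the 5S ribosomal RNA particle and can bind and inhibit the p53 ligase MDM2, read 3275.5 in TAZ-deficient and 2992.0 in wild type lung (log2 ratio 0.13). Rpl10a, of the mobile L1 stalk, read 5160.3 and 4903.1 (0.07). Rpl38, whose loss in Tail short mice alters the translation of Hox mRNAs, read 5110.4 in TAZ-deficient and 4970.6 in wild type lung (0.04). These 3 ratios were all above 0 and all under 1.1-fold.

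Of the large subunit genes with other roles, Rpl27a and Rpl37 had the highest ratios, after Rpl39. Rpl27a read 126.8 in TAZ-deficient and 105.0 in wild type lung (1.21-fold), and its second probe set, at 2.4 and 3.0, was below the floor. Rpl37 read 694.8 and 603.9 (log2 ratio 0.20). Rpl7a read 4565.9 in TAZ-deficient and 4324.2 in wild type lung (0.08), and Rpl27 read 4193.3 and 4020.4 (0.06). Other probe sets of Rpl27 gave 0.20 and 0.13. Rpl13a, which in human myeloid cells can leave the ribosome to silence inflammatory mRNAs, read 5073.8 in TAZ-deficient and 4817.0 in wild type lung (0.07). Its other 3 probe sets gave 0.05, 0.20 and 0.20.

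Several large subunit genes were level between the arrays. Rpl22, an RNA-binding protein needed for T cell development, read 4252.2 in TAZ-deficient and 4259.3 in wild type lung. Rpl41, the shortest ribosomal protein, read 4205.1 and 4213.1, with 0.06 and -0.09 at its other measured probe sets. Rpl6 read 3938.3 in TAZ-deficient and 3980.6 in wild type lung, Rpl8 read 3459.1 and 3443.4, and Rpl14 read 251.5 and 254.2. By the probe set used, none of these 5 had a log2 ratio beyond 0.02 in size. Rpl7 lay slightly above them at 4240.1 in TAZ-deficient and 4106.7 in wild type lung (0.05). Its other probe sets gave 0.01 and 0.19.

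In the small subunit, the proteins along the mRNA path had 6 of 6 measured ratios above 0 (8 were listed), against 33 of all 43 members and 46.7% of all measured genes. Their median of 0.06 was -0.0055 with quantile normalization and -0.0025 with loess. Rps3, at the mRNA entry and also a DNA repair protein, read 3669.7 in TAZ-deficient and 3514.2 in wild type lung (log2 ratio 0.06). Rps2, its neighbour at the entry, read 3929.5 and 3808.9 (0.05). Rps15, in the head near the decoding centre, read 4109.9 in TAZ-deficient and 3562.0 in wild type lung (0.21), the highest ratio of any member above 1000. Its second probe set went the other way, at 2878.9 in TAZ-deficient and 3039.8 in wild type lung (-0.08), so that the 2 disagree by more than the ratio itself.

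Rps14 and Rps26 of the platform and Rps28 at the mRNA exit complete that path. Rps14 read 4464.4 in TAZ-deficient and 4145.0 in wild type lung (log2 ratio 0.11), and its other probe set gave 0.04. Rps26 read 3176.7 and 3063.3 (0.05). Rps28 read 4495.2 in TAZ-deficient and 4375.7 in wild type lung (0.04), with 0.07 and 0.09 at its other 2 probe sets. These values lay within 1.08-fold.

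Rps6, phosphorylated by the S6 kinases downstream of mTORC1, read 614.1 in TAZ-deficient and 557.0 in wild type lung (log2 ratio 0.14). Rpsa, a small subunit protein also known as a laminin receptor precursor, read 4816.6 and 4376.5 (0.14). Rps25, used by viral internal ribosome entry sites, had the lowest ratio of the subunit at -0.16, reading 211.7 in TAZ-deficient and 235.9 in wild type lung. Rps27, a zinc finger protein, had the highest at 0.25, reading 45.2 in TAZ-deficient and 37.9 in wild type lung. Both extremes came from a single weak probe set.

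The head and body proteins of the small subunit varied little. Rps20 read 4839.4 in TAZ-deficient and 4478.3 in wild type lung (log2 ratio 0.11), Rps18 read 4920.0 and 4642.3 (0.08), and Rps29 read 5531.8 and 5296.4 (0.06). Rps10 read 5124.2 in TAZ-deficient and 4966.5 in wild type lung (0.05), with all 5 of its measured probe sets above 0. Rps9 read 3860.2 and 3642.3 (0.08), and Rps7 read 4771.1 and 4520.5 (0.08). Rps24 read 4142.0 in TAZ-deficient and 4062.0 in wild type lung (0.03). By the probe set used, each of these 7 genes was higher on the TAZ-deficient array by under 1.1-fold. Another probe set was 1.14-fold higher for Rps9, 1.10-fold for Rps7 and 1.15-fold for Rps20. The weakest probe set of Rps20 had a log2 ratio of -0.02.

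Rps4x, encoded on the X chromosome, read 4551.1 in TAZ-deficient and 4606.2 in wild type lung (log2 ratio -0.02), and Rps4l, related to it by symbol, read 708.9 and 741.4 (-0.06). Rps27l, a paralogue of Rps27 that p53 can induce in human cells, read 2107.6 in TAZ-deficient and 2116.6 in wild type lung (-0.01), with 0.02 and 0.07 at its other probe sets. The other paralogues were not above the floor. Rpl39l, a testis-enriched copy of Rpl39, read 9.9 in TAZ-deficient and 10.9 in wild type lung, and Rpl3l, a copy of Rpl3 enriched in heart and skeletal muscle, read 2.2 and 0.7. The single probe set that names Rps16 alone read 0.3 and 0.2, also below the floor.

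Genes mutated in human Diamond-Blackfan anaemia, a failure of red cell formation caused by loss of 1 copy of a ribosomal protein gene, were matched for 11 of 18 listed. All 11 had ratios above 0, against 33 of all 43 members and 46.7% of all measured genes. Of the 11, 10 had a mean signal above 1000, where 28 of 34 members were above 0. The ratios ran from 0.03 (Rps24) to 0.25 (Rps27), with a median of 0.05 that turned to -0.0049 under quantile normalization and to -0.0097 under loess. Rps19, the first gene linked to the disease, read 4007.3 in TAZ-deficient and 3873.8 in wild type lung (0.05). None was 1.2-fold different.

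Probe sets of the same gene give the only measure of error that these arrays allow. Of 100 member probe sets, 83 were above the floor on both arrays, 2 on 1 array and 15 on neither. Among the 85 measured, 71 had a ratio above 0, against 47.1% of all measured single-gene probe sets. Of the 85, 3 were at least 1.2-fold higher (9.2% of all measured single-gene probe sets) and 0 were at least 1.2-fold lower (11.7%). For 19 genes with 2 or more probe sets above the floor on both arrays, the disagreement between the 2 strongest was 0.06 (the SD of the difference of their log2 ratios, scaled to a single probe set by the square root of 2). It is the error of a single probe set's ratio, not of the family's median. All probe sets were above 0 in 13 of the 19 genes, signs were mixed in 6 and all were below 0 in 0. With both strongest probe sets above 1000, these 2 had the same sign in 14 of 18 member genes (77.8%). The share was 72.2% over all 241 genes of that kind on the array, so the members lay near it. The disagreement over those 241 genes was 0.07. It holds no variation between embryos, pools or arrays.

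Rpl37a had the widest disagreement. Its 2 strong probe sets read 4460.9 in TAZ-deficient and 4469.9 in wild type lung, and 3673.7 and 3731.7. The remaining one, with the suffix of a cross-hybridising set, read 223.1 in TAZ-deficient and 114.5 in wild type lung, a log2 ratio of 0.96 (1.95-fold), and was the only member probe set at least 1.5-fold different. Rpl22, Rpl41, Rps20 and Rps27l also had 3 or more measured probe sets of mixed sign, with ratios from -0.0024 to 0.14, from -0.09 to 0.06, from -0.02 to 0.21 and from -0.01 to 0.07. The lowest of Rpl41 came from a probe set at 13.6 in TAZ-deficient and 16.2 in wild type lung, so that it is a bound. In 14 of the 19 genes the weakest probe set had a higher ratio than the strongest, as it had in 2491 of 5201 genes of the whole array and in 131 of 241 with both strongest probe sets above 1000.

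**Figure D3:**
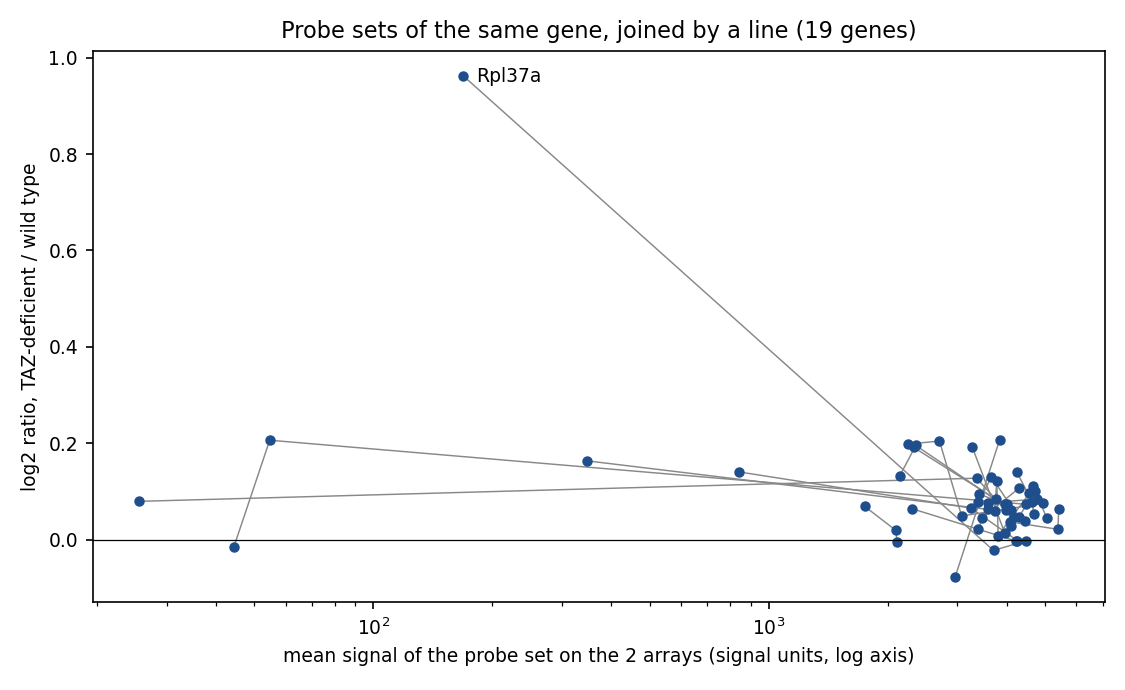
Log2 ratio (TAZ-deficient / wild type) (y axis) against mean signal (x axis, log scale) for every probe set above the floor on both arrays of the 19 genes with at least 2; points of 1 gene are joined. Apart from the Rpl37a probe set at 0.96, the points lie between -0.08 and 0.21.

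Cross-hybridisation is a known feature of this family, whose many processed pseudogenes resemble the mRNAs. Of the 100 member probe sets, 40 had the suffix _x_at, which marks probes that can match other transcripts, against 5.83% of all single-gene probe sets. Their 38 measured ratios had a median of 0.07 with 34 above 0, against 0.03 and 57.8% for all measured single-gene _x_at probe sets. The 18 measured with the plain suffix _at had 0.08 with 12 above 0, against -0.02 and 45.9% for all of that suffix. The part of cross-hybridisation in the ratios was not tested. Leaving out the suffixes _s_at and _x_at kept 36 genes, with a median of 0.06 and the same count of 2 genes at least 1.2-fold higher.

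Ratios were set against the presence of a TOP-like run as a description, and the difference was not tested. The 21 measured genes with a C-led run of 8 or more C or T near the start had a median log2 ratio of 0.07 and 18 ratios above 0. The 16 measured genes with a promoter entry but no run had 0.05 and 10 above 0, with ranges of -0.16 to 0.41 and -0.22 to 0.21 that overlap. For the ETS core the medians were 0.06 in 19 genes with it and 0.06 in 18 without.

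**Figure D4:**
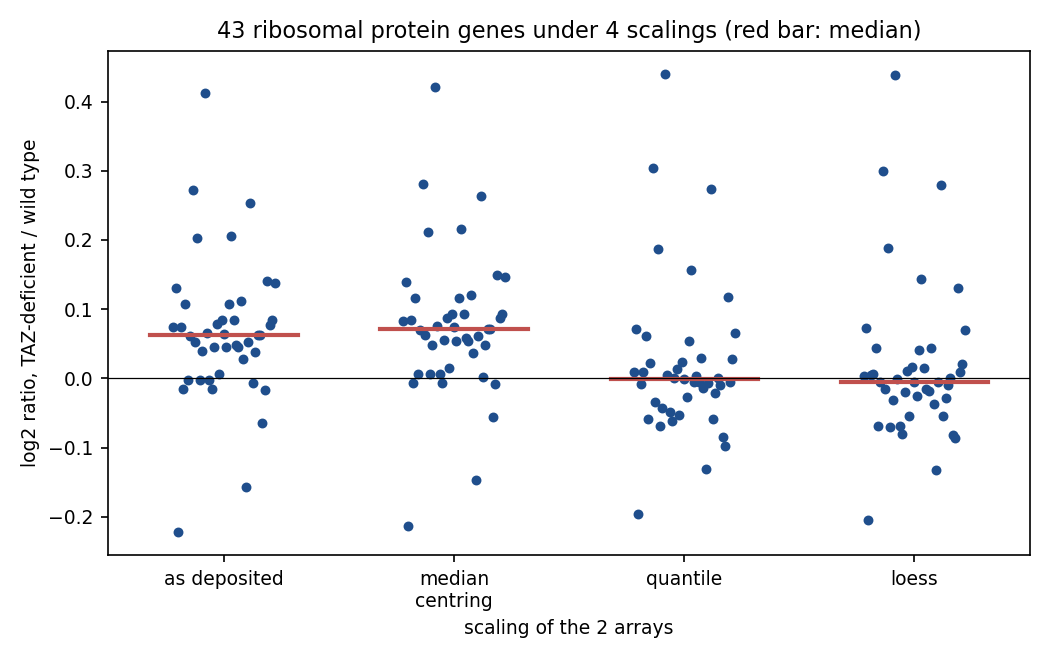
Log2 ratio (TAZ-deficient / wild type) (y axis) of the 43 measured ribosomal protein genes under 4 ways of scaling the arrays (x axis); each point is a gene and the red bar the median. The median is 0.06 as deposited, 0.07 with median centring, -0.0009 with quantile normalization and -0.0045 with loess, while the spread between genes is alike.

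The members with the 5 highest ratios and the lowest one kept their sign under all 4 scalings. They were picked for ratios far from 0 as deposited, so a kept sign adds no support to them. Rps6 and Rps25 were not picked and kept theirs too, but their ratios were the next farthest from 0. Members nearer 0 often changed sign. Rps10 went from 0.05 as deposited to -0.03 with quantile normalization, and Rpl38 from 0.04 to -0.04. Rpl39 had log2 ratios of 0.41 to 0.44, Rpl27a of 0.27 to 0.30 and Rps27 of 0.25 to 0.28 over the 4 scalings, the last passing 1.2-fold with quantile normalization and loess. Rps15 ran from 0.14 to 0.22 by its strongest probe set, its second being at -0.08 as deposited, and Rpl37 from 0.19 to 0.21. The lowest, Rpl12, ran from -0.22 to -0.20.

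Other genes of the ribosome were read alongside. Fau, whose product is cleaved into a ubiquitin-like part and a small subunit protein, read 3320.7 in TAZ-deficient and 3132.0 in wild type lung (log2 ratio 0.08). Rpl22l1, a paralogue of Rpl22, read 3311.5 and 3352.1 (-0.02), and Rpl7l1 read 792.3 and 728.9 (0.12) by its strongest probe set. None was 1.2-fold different by its strongest probe set. The other probe sets of Rpl7l1 gave log2 ratios of 0.02 and, at 15.4 in TAZ-deficient and 54.5 in wild type lung, -1.82.

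Translation factors whose mRNAs carry a TOP tract, listed with other TOP-mRNA genes such as Vim and Nap1l1, lay close to the ribosomal proteins. Of 18 measured, 15 had ratios above 0, against 46.7% of all measured genes. Their median log2 ratio was 0.07, or 0.01 with quantile normalization. Of the 18, 17 had a mean signal above 1000, where 71.2% of the 718 genes outside the family were above 0. Eef2, the translocating elongation factor, read 3103.8 in TAZ-deficient and 2699.2 in wild type lung (0.20). Hnrnpa1, an RNA-binding protein, was the only one past 1.2-fold, reading 704.7 in TAZ-deficient and 388.3 in wild type lung (1.81-fold) by an _x_at probe set, while its other measured probe set read 289.9 and 295.5.

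Ribosome biogenesis genes, which make and assemble ribosomal RNA, had a median log2 ratio of -0.0029 over 50 measured, with 25 above and 25 below 0. Imp4, a factor of small subunit processing, was the only one at least 1.2-fold higher (315.6 in TAZ-deficient and 258.1 in wild type lung). Mdn1, a large subunit assembly ATPase, was 1.48-fold lower (33.2 and 49.0), Rrp12 1.25-fold lower (29.6 and 37.1) and Bop1 1.21-fold lower (219.1 and 266.1). These counts of 1 and 3 of 50 are below the 8.02% and 10.6% of all measured genes. Of the 6358 genes outside the family with a mean signal between 100 and 1000, 245 were higher and 340 lower by that size.

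Regulators of mTORC1 and TOP mRNA had a median log2 ratio of 0.01 over 17 measured. Larp1, which binds the TOP tract, read 350.1 in TAZ-deficient and 338.5 in wild type lung, and Mtor read 115.4 and 106.5. Tsc2, an inhibitor of the pathway, was the only one past 1.2-fold, reading 159.4 in TAZ-deficient and 192.4 in wild type lung (1.21-fold lower).

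The p53 response, known to follow ribosome assembly faults, had a median log2 ratio of -0.09 over 17 measured, with 5 at least 1.2-fold lower and 1 higher, against 10.6% and 8.02% of all measured genes. Perp, a desmosome protein, read 125.8 in TAZ-deficient and 175.4 in wild type lung (1.39-fold lower), Zmat3 read 78.8 and 104.7 (1.33-fold lower), and the nuclease Aen read 108.1 and 132.4 (1.22-fold lower). Sesn2 was at least 1.91-fold lower by the probe set used (14.9 and 29.0), but its other probe set read 23.5 in TAZ-deficient and 14.7 in wild type lung. Mdm4, the remaining one of the 5, read 56.7 in TAZ-deficient and 68.7 in wild type lung. Lower by at least 1.2-fold were 929 of 4921 other genes with a mean signal below 100, where Sesn2 and Mdm4 lie. Between 100 and 1000, where Perp and Aen lie, 340 of 6358 were. Tigar, a regulator of glycolysis, was 1.27-fold higher (31.7 and 24.9). Of the 17, 5 had ratios above 0 and 12 below, and Cdkn1a was among the 5 above (56.0 in TAZ-deficient and 49.5 in wild type lung).

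Mitochondrial ribosomal proteins, which serve the separate ribosome of that organelle, had a median below 0 under all 4 scalings. So did all measured genes, at -0.01 as deposited, -0.0043 with median centring, -0.0071 with quantile normalization and -0.0055 with loess. Other genes with a mean signal between 100 and 1000 had -0.01 as deposited. The median of the cytosolic proteins was above 0 only as deposited and with median centring. Of 76 measured, 29 had ratios above 0 (46.7% of all measured genes did) and 47 below, with a median log2 ratio of -0.04 that was -0.05 with quantile normalization and -0.04 with loess. Mrpl33 had a log2 ratio of -0.58 (286.4 in TAZ-deficient and 428.5 in wild type lung) and Mrps18b was 1.23-fold lower (235.7 and 289.3), the only 2 at least 1.2-fold lower (10.6% of all measured genes were), and 0 were at least 1.2-fold higher. Only 3 of the 76 had a mean signal above 1000, with a median of -0.01, whereas 34 of the 43 cytosolic genes did.

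**Figure D5:**
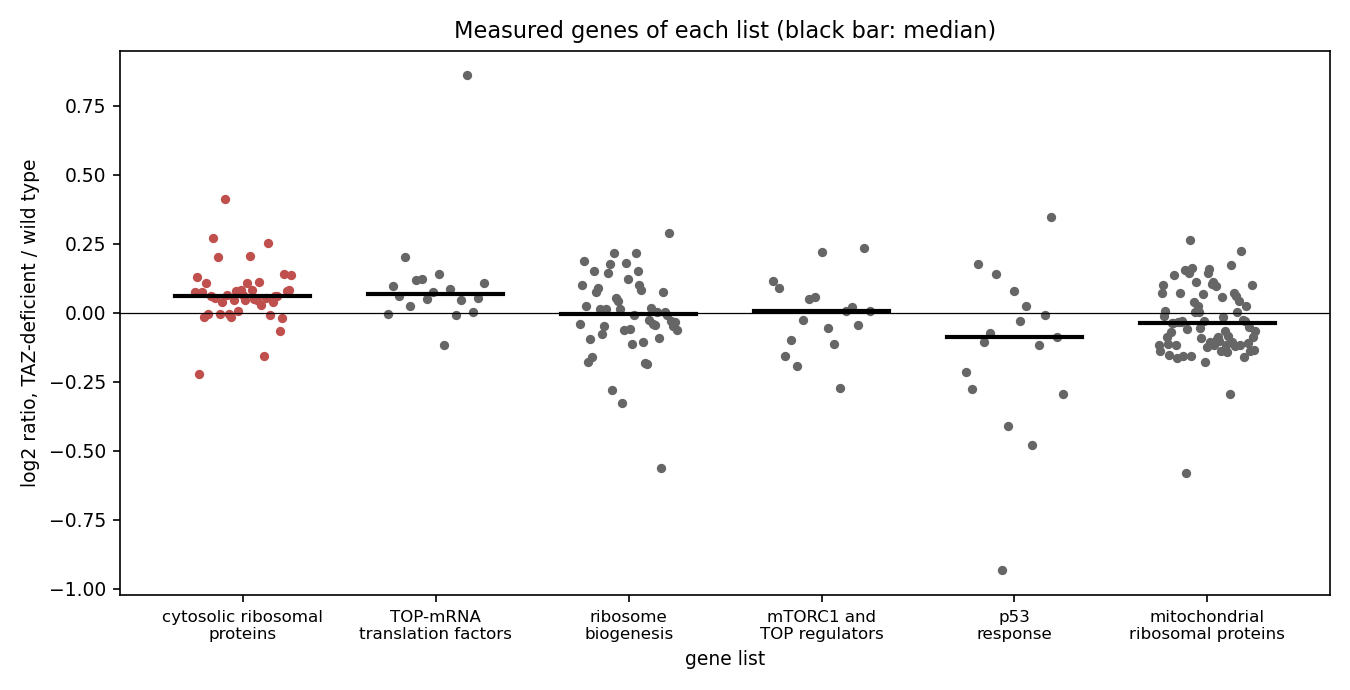
Log2 ratio (TAZ-deficient / wild type) (y axis) of the measured genes in 6 lists (x axis), with the median as a black bar. Medians are 0.06 for the cytosolic ribosomal proteins and 0.07 for TOP-mRNA translation factors, a list that also holds other TOP-mRNA genes. They are -0.0029 for ribosome biogenesis, 0.01 for mTORC1 and TOP regulators, -0.09 for the p53 response and -0.04 for mitochondrial ribosomal proteins.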

How the data were processed

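Whole lung RNA of 2 pools was measured on 1 Affymetrix array each. The deposited intensity values are linear and carry 1 decimal. Per the submitters' processing notes, GCOS and MAS5 were used, with no version. The trimmed mean (2% off each end) was 100.001 on both arrays, so both had been scaled as a whole. The build behind the probe design is not given in the sources used here.

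Of 45101 probe sets, 64 were controls. Of the others, 34945 had 1 gene in the platform annotation, 932 several and 9160 no entry. Symbols other than the members' were updated through Entrez identifiers to GRCm38.p6 for 34741. Values below the floor of 15.2 were raised to it before the log2 ratio was taken, and a gene was represented by its probe set of highest mean log2 signal. With 1 array per group no test was run. The number of arrays limits the precision. Folds of at least 1.2 and 1.5 were counted. Named genes were the members past 1.2-fold, the highest and lowest 6 of each subunit, members of structural lists, genes with 3 or more probe sets of mixed sign and chosen members of known role, and, from other lists, up to 4 genes past 1.2-fold in each direction. Further members, and Eef2, Larp1, Mtor and the red cell and tissue markers printed, were named after their values were seen. The members and lists were chosen with earlier results of these data known. Counting and scaling were tested on simulated data. Alternatives were floors at the 25th and 75th percentiles (4.3 and 106.3 signal units), median centring, quantile normalization, loess (fraction 0.3, statsmodels 0.14.6) and other probe set rules. Python 3.11.15 with pandas 2.3.3 was used.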

Additional observations from a re-analysis of the deposited data

How the results depend on the processing

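The median log2 ratio of the ribosomal protein genes stayed between 0.06 and 0.07 under both other floors, median centring and the 3 other probe set rules, and reversed to -0.0009 with quantile normalization and to -0.0045 with loess. For the large subunit the median was 0.0026 with quantile normalization and -0.0024 with loess, and for the small subunit -0.0049 and -0.0056. The number of genes at least 1.2-fold higher was 2 or 3, except 0 under a floor of the 75th percentile and 0 among genes with a mean signal above 1000 (a range chosen after seeing the data), where the weak signals of Rpl39 and Rpl27a are raised or left out. The number at least 1.2-fold lower was 0 throughout. Rpl39 and Rpl27a, picked for their deposited ratios, kept their sign where they were measured. With the weakest probe set above the floor for each gene, Rpl37a was the additional gene past 1.2-fold, at 0.96 against -0.0029. No paired analysis was possible because each group is 1 array. With 2 arrays the error of these medians between pools is unknown.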
